A study of Mus musculus with 16 samples.

Results

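The UDP-glucuronosyltransferases examined here were 10 genes of mouse liver, taken by symbol from the deposited count table: Ugt1a1, Ugt1a6a, Ugt2a3, Ugt2b1, Ugt2b5, Ugt2b34, Ugt2b35, Ugt2b36, Ugt2b38 and Ugt3a2. They are 10 of the 40324 distinct symbols of the table, and all 10 passed the filter on low counts that left 14476 genes for testing. Liver RNA came from 16 littermate db/db mice, a model of obesity and diabetes that carries a defective leptin receptor gene. In 8 of them an adeno-associated virus of serotype 8 (AAV8) carried arcA, and in the other 8 the same type of vector carried enhanced green fluorescent protein (GFP). Injection was at about 5 weeks of age and sampling 5 weeks later, at 10 weeks, and both groups therefore share the db/db genotype, the virus and the age. The labels give neither the sex of the mice nor the promoter of the vector, and they do not say what arcA encodes. Nothing in the labels says how the vector dose was prepared, and no uninjected or lean animals were analysed here. The comparison asks how the hepatic level of these transcripts differed after arcA and after GFP.

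UDP-glucuronosyltransferases are membrane enzymes of the endoplasmic reticulum that transfer a sugar from a UDP sugar to a small lipophilic molecule. For the UGT1 and UGT2 families the sugar is mainly glucuronic acid, and the water-soluble glucuronides leave the hepatocyte for bile or blood. Bilirubin, steroid hormones, bile acids, thyroid hormone and many drugs are cleared this way, and the liver is a main site of it. The UGT3 family prefers other UDP sugars in the human enzymes that have been studied.

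All 10 genes had a higher fitted mean in arcA livers than in GFP livers, and the differences were small. Ugt1a1, the bilirubin-conjugating enzyme, rose 1.38-fold, Ugt2b38 rose 1.21-fold and Ugt3a2 rose 1.18-fold. These 3 of 10 passed an adjusted p of 0.05 in edgeR's quasi-likelihood test, none fell, and 7 did not pass. Over all genes tested, 10.8% passed in either direction with 4.26% higher and 6.57% lower in arcA livers. The median log2 fold change of the 10 genes was 0.22, against 0.01 over all genes tested, of which 52.3% lay above 0. It was 0.195 for a list of hepatocyte markers. With the libraries scaled on those markers, 6 of the 10 genes lay above 0. Their median was then 0.088, against -0.13 over all genes. The call for Ugt1a1 was kept in every setting tried, whereas those for Ugt2b38 and Ugt3a2 were lost in most fits that left out 1 library.

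The libraries held 37325610 to 45874797 counts in arcA livers and 28912563 to 53520828 counts in GFP livers, of which the 10 genes took 0.234% to 0.343%. Levels are given below as CPM, a library's counts for the gene scaled to a common total, on library sizes scaled by the trimmed mean of M values (TMM). The long noncoding RNA Gm42418 took 11.8%, 18.1% and 19.4% of the counts in GFP livers 2, 3 and 5, and 2.29% to 7.37% elsewhere. The hepatocyte genes of a marker list were abundant in every library, with a summed level of 99370 to 129600 CPM in arcA livers and 100200 to 112300 CPM in GFP livers. Of these 18 hepatocyte markers, 4 rose, 0 fell, and their median log2 fold change was 0.20, close to that of the glucuronosyltransferases. Markers of several other cell types were lower in arcA livers, where the 14 T and NK cell markers in the table summed to 1.01 to 4.36 CPM, against 13.4 to 28.6 CPM in GFP livers, and all 12 that were tested fell. All 5 B and plasma cell markers tested fell as well, and the 8 in the table had sums of 2.37 to 4.01 CPM in arcA livers and 53.6 to 305 CPM in GFP livers. Of the macrophage markers 8 of 12 fell, of the stellate cell markers 8 of 10, of the endothelial markers 1 of 7 and of the bile duct markers 0 of 5. No marker was at 0 counts over a whole group. In bulk RNA, fewer cells of a type and less RNA per cell cannot be told apart, and the part of these shifts in the results below was not tested beyond a fit scaled on the hepatocyte markers.

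Ugt1a1 and Ugt1a6a lie in the Ugt1a locus on chromosome 1 of GRCm38. There a first exon that differs between the enzymes is joined to exons that all of them share. Ugt1a1 spans chr1:88211959-88218997 on the plus strand with 5 exons, and Ugt1a6a spans chr1:88134809-88218997 on the same strand. The joins between the first exon and the shared second exon are shown because there the sequence of each enzyme's first exon gives way to sequence common to all. Lower case marks the last 24 bases of the first exon, and capitals mark the first 24 bases of the shared exon at chr1:88215044-88215175.
Ugt1a1: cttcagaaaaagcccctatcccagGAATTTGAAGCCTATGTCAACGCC
Ugt1a6a: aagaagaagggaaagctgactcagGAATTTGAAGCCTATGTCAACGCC
Ugt1a5: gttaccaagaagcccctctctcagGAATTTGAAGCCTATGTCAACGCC
Ugt1a6b: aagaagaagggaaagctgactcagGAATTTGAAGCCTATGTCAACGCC
Ugt1a9: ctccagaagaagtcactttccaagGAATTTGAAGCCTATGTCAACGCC
The capitals are the same in all 5 transcripts, and 1311 bases after the first exon are identical. Ugt1a6a and Ugt1a6b share the lower-case letters as well, and their coding sequences are 98.4% identical. Of the exon bases of Ugt1a1 82.7% are also exon of another gene, and of those of Ugt1a6a 50.3%. For Ugt1a1 this includes 528 bases of its 913-base first exon that overlap Gm20528, a gene on the opposite strand. Gm20528 had 0 counts over all libraries. Of all 50-base stretches, 58.2% for Ugt1a1 and 97.7% for Ugt1a6a occur in another gene. For Ugt1a6a the gene sharing most was Ugt1a7c. The sharing reaches into most of the first exon of Ugt1a6a, which is therefore not unique to it. The sources used here do not say how reads in shared exons were counted, and the counts of these genes are therefore uncertain as to which first exon they stand for.

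Ugt1a1 conjugates bilirubin, and its loss in humans causes inherited jaundice. It was measured at 88.1, 64.4, 71.2, 70.8, 74.3, 88.1, 68.9 and 64.2 CPM in arcA livers 1 to 8, against 43.8, 47.0, 65.8, 60.2, 50.0, 47.8, 48.9 and 65.3 CPM in GFP livers 1 to 8. Every arcA liver lay above the GFP median and 6 of 8 lay above the highest GFP liver, so the groups overlapped only where arcA livers 2 and 8 met GFP livers 3 and 8. The means were 73.8 ± 9.47 CPM in arcA livers and 53.6 ± 8.75 CPM in GFP livers (SD, n = 8 each). The log2 fold change was 0.46 with an SE of 0.0944, a 95% interval of 0.26 to 0.66 and an adjusted p of 0.00401 in edgeR's quasi-likelihood test. With the libraries scaled on the hepatocyte markers it was 0.33, with an adjusted p of 0.00982.

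The promoter of Ugt1a1 is printed because this is the member whose call was kept throughout. It holds the letters ATTAAC, in capitals, 41 bases before the start of transcription, in RefSeq's window of 250 bases before and 50 bases after the start on GRCm38.p6, chr1:88211709-88212008, plus strand.
Ugt1a1 promoter: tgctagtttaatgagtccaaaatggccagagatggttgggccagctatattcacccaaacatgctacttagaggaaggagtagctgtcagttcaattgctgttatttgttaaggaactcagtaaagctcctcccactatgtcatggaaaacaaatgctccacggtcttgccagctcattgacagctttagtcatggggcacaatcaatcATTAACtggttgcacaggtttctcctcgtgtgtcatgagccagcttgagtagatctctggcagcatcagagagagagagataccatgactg
On the other strand these letters read GTTAAT, which was searched on both strands and occurred in 7.1% of all promoters of that length and in 3 of the 9 members listed there, Ugt1a1, Ugt1a6a and Ugt2a3. The match is a description of the letters.

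Ugt1a6a, whose enzyme conjugates small planar phenols, was low, at 1.55 to 3.004 CPM in arcA livers with a median of 2.44, against 1.72 to 3.12 CPM in GFP livers with a median of 2.27. The groups overlapped over nearly their whole range. Since nearly all of its sequence also occurs in another gene, reads may have been dropped or counted elsewhere. Whether this lowered the level was not tested. Its log2 fold change was 0.09 with a 95% interval of -0.23 to 0.40 and an adjusted p of 0.787.

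Of the remaining genes of the family, 11 were in the table, 9 were tested, 2 rose, 0 fell and their median log2 fold change was 0.27. Ugt1a6b, the near copy of Ugt1a6a, averaged 29.3 ± 2.15 CPM in arcA livers and 24.2 ± 3.64 CPM in GFP livers, with a log2 fold change of 0.27, an SE of 0.0797 and an adjusted p of 0.0313. This call was kept in 9 of 16 fits without 1 library, with adjusted p up to 0.0734. Reads of the pair could be divided either way by the counting. Ugt1a5, named after its values were seen, averaged 58.3 ± 19.99 CPM in arcA livers and 36.7 ± 11.2 CPM in GFP livers, and its log2 fold change of 0.66 did not pass, with an adjusted p of 0.0748. Of the counts assigned to the locus, Ugt1a1 held 37.2% ± 3.25 in arcA livers and 36.6% ± 5.54 in GFP livers (SD, n = 8 each), so its share within the locus differed by less than the spread between livers.

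**Figure D1:**
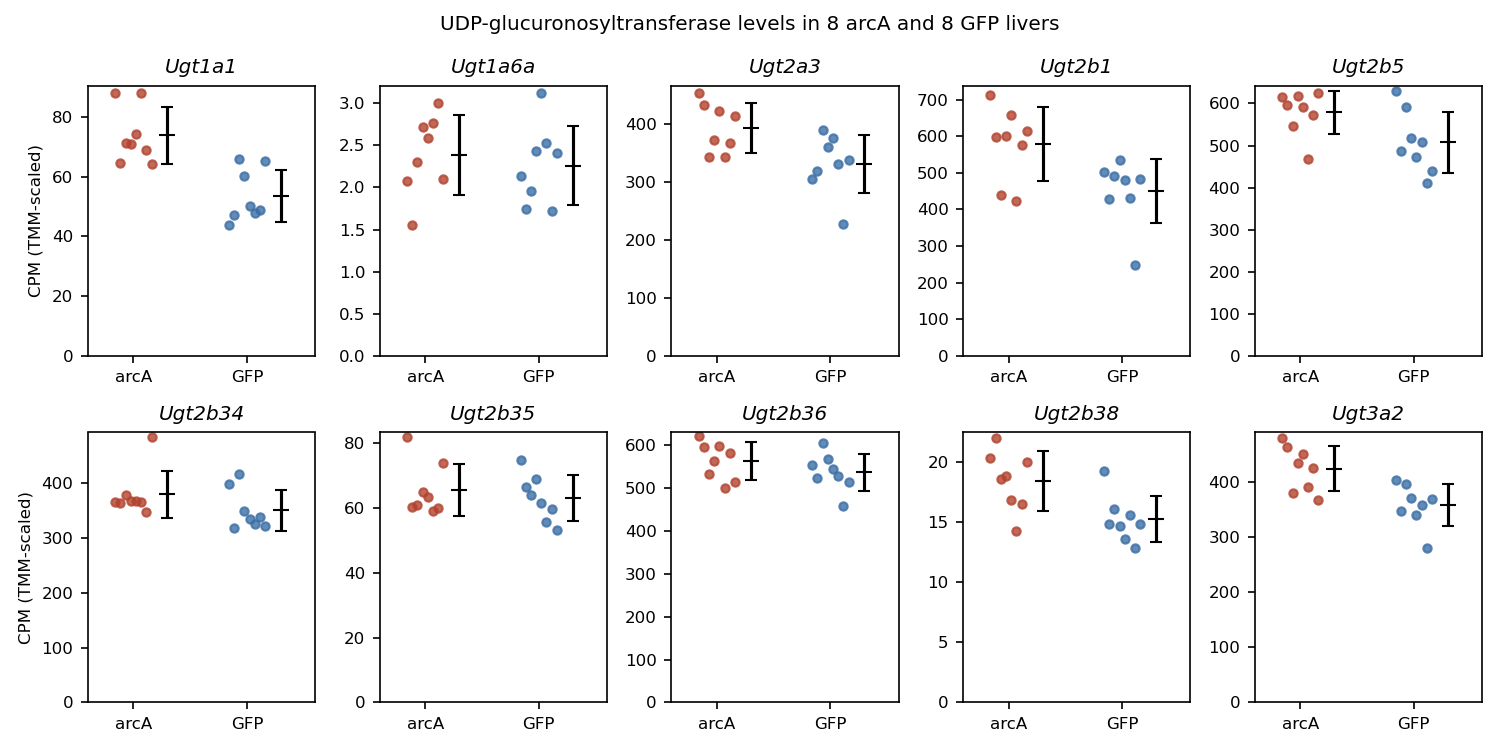
Level of each of the 10 genes in CPM on TMM-scaled library sizes, 1 panel per gene, with 1 point per liver for arcA and GFP and the group mean and SD. The Ugt1a1 points of arcA livers sit at 64.2 to 88.1 CPM against 43.8 to 65.8 CPM in GFP livers, while the groups of the other genes overlap more.

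The Ugt2 genes lie together on chromosome 5. Ugt2a3, whose human counterpart conjugates bile acids, spans chr5:87324972-87337195 on the minus strand. It was measured at 343 to 455 CPM in arcA livers with a median of 394, against 228 to 389 CPM in GFP livers with a median of 335. All 8 arcA livers lay above the GFP median and 4 above the highest GFP liver. The log2 fold change was 0.25 with a 95% interval of 0.06 to 0.44, and the adjusted p of 0.0872 in edgeR's quasi-likelihood test did not pass.

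The 6 Ugt2b genes belong to the subfamily that conjugates steroids and many drugs. Their promoters are shown around a stretch that all 6 share, a near-palindrome read as GTTA and TTAAC with 4 bases of any kind between them and searched on both strands, which was chosen after the promoter letters were seen. Each window is given 5′ to 3′ on the strand of the gene, from RefSeq on GRCm38.p6, with the palindrome in capitals.
Ugt2b1, chr5:86926568-86926604, minus strand: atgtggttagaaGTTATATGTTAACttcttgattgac
Ugt2b5, chr5:87140377-87140413, minus strand: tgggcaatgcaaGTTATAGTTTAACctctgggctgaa
Ugt2b34, chr5:86906986-86907022, minus strand: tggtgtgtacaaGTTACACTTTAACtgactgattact
Ugt2b35, chr5:87000778-87000814, plus strand: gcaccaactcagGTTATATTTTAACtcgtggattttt
Ugt2b36, chr5:87092595-87092631, minus strand: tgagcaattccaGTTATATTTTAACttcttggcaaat
Ugt2b38, chr5:87424243-87424279, minus strand: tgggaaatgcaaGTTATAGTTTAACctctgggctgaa
The first base of the palindrome lay 61 to 89 bases before the start of transcription. It occurred in 6 of the 9 members listed and in 0.189% of the 32851 promoters of the table. Of these 6 members, 1 was called in the comparison below. Outside the 10 genes, the promoters of Ugt2b37 and Ugt3a1 hold it too, and Ugt3a1 was called while Ugt2b37 was not. The match is a description of the letters.

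Ugt2b38, at chr5:87409942-87424203 on the minus strand, was measured at 14.2 to 22.0 CPM in arcA livers with a median of 18.7, against 12.9 to 19.2 CPM in GFP livers with a median of 14.8. The groups overlapped, with 7 of 8 arcA livers above the GFP median and 3 above the highest GFP liver. The means were 18.4 ± 2.46 CPM in arcA livers and 15.2 ± 1.91 CPM in GFP livers, and the log2 fold change was 0.27 with an SE of 0.0866 and an adjusted p of 0.0464. The call was lost with the libraries scaled on the hepatocyte markers, where the log2 fold change was 0.14 with an adjusted p of 0.296, and it was kept in 4 of 16 fits that each left out 1 library, with adjusted p of 0.0124 to 0.107. Its promoter, chr5:87424154-87424453 on the minus strand, is given whole, with the same palindrome in capitals, because Ugt2b38 is the Ugt2b gene that was called.
Ugt2b38 promoter: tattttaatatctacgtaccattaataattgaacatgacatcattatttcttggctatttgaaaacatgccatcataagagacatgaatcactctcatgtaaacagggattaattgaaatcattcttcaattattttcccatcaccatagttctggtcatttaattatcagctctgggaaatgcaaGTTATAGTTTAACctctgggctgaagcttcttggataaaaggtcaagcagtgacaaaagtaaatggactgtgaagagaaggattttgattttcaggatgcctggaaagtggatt
Ugt2b5, at chr5:87124960-87140318, is its closest relative here, with 97.0% identical coding bases and 84.2% identical promoter bases. Of the 50-base stretches of Ugt2b38, 37.4% also occur in another gene, most often Ugt2b5, so some reads of the more abundant Ugt2b5 could be counted for Ugt2b38 or dropped from both. Ugt2b5 was at 468 to 624 CPM in arcA livers and 411 to 631 CPM in GFP livers, and its log2 fold change of 0.19 did not pass, with an adjusted p of 0.159.

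Ugt2b1, at chr5:86916638-86926530 and known from the rat to conjugate bisphenol A, had the largest fitted change among the Ugt2b genes. It was measured at 423 to 714 CPM in arcA livers with a median of 599, against 249.5 to 534.5 CPM in GFP livers with a median of 482. The arcA livers were split, with 6 of 8 above the highest GFP liver and arcA livers 3 and 6 below the GFP median. The log2 fold change was 0.36 with an SE of 0.134 and a 95% interval of 0.08 to 0.64, and the adjusted p of 0.0945 did not pass. DESeq2 called it, with an adjusted p of 0.0487. Of the 50-base stretches of Ugt2b1, 0.0% occur in another gene.

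Ugt2b34, Ugt2b35 and Ugt2b36 had the smallest fitted differences among the Ugt2b genes. Ugt2b34, at chr5:86889767-86906937, averaged 379 ± 42.8 CPM in arcA livers and 350 ± 37.0 CPM in GFP livers, with a log2 fold change of 0.12 and an adjusted p of 0.362. Ugt2b35, at chr5:87000860-87013275, averaged 65.6 ± 8.08 CPM in arcA livers and 63.1 ± 7.04 CPM in GFP livers, with an adjusted p of 0.710. Ugt2b36, at chr5:87065927-87092555, averaged 564 ± 44.1 CPM in arcA livers and 537 ± 42.8 CPM in GFP livers. Its 95% interval on the log2 scale was -0.06 to 0.20. For these 3 genes the intervals of the difference include 0, and scaled on the hepatocyte markers their log2 fold changes were below 0, at -0.02 for Ugt2b34, -0.08 for Ugt2b35 and -0.06 for Ugt2b36.

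Ugt3a2, at chr15:9335550-9370955 on the plus strand, was measured at 367 to 480 CPM in arcA livers with a median of 430.5, against 281 to 404 CPM in GFP livers with a median of 364. All 8 arcA livers lay above the GFP median and 5 above the highest GFP liver. Its log2 fold change was 0.24 with an SE of 0.0742 and an adjusted p of 0.0394 in edgeR's quasi-likelihood test. The call was lost with scaling on the hepatocyte markers, at 0.11 with an adjusted p of 0.275, and was kept in 5 of 16 fits without 1 library, with adjusted p of 0.0209 to 0.0889. Its neighbour in sequence, Ugt3a1, has 93.2% identical coding bases and was separated without overlap, at 82.8 to 98.8 CPM in arcA livers and 55.0 to 74.2 CPM in GFP livers. Ugt3a1 rose with a log2 fold change of 0.44, an SE of 0.058 and an adjusted p of 8.29e-05, and this call was kept in all 16 fits without 1 library and with scaling on the hepatocyte markers. Of the 50-base stretches of Ugt3a2, 9.4% occur in another gene.

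Counted over livers, 4 of the 10 genes had every arcA liver above the GFP median, as had 8.81% of all genes tested. For 0 of the 10 did the groups separate fully, as they did with arcA higher for 0.566% of all genes tested. The summed level of the 10 genes was 3078 ± 258 CPM in arcA livers and 2668 ± 291 CPM in GFP livers, with ranges of 2654 to 3444 CPM and 2089 to 3036 CPM that overlapped.

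**Figure D2:**
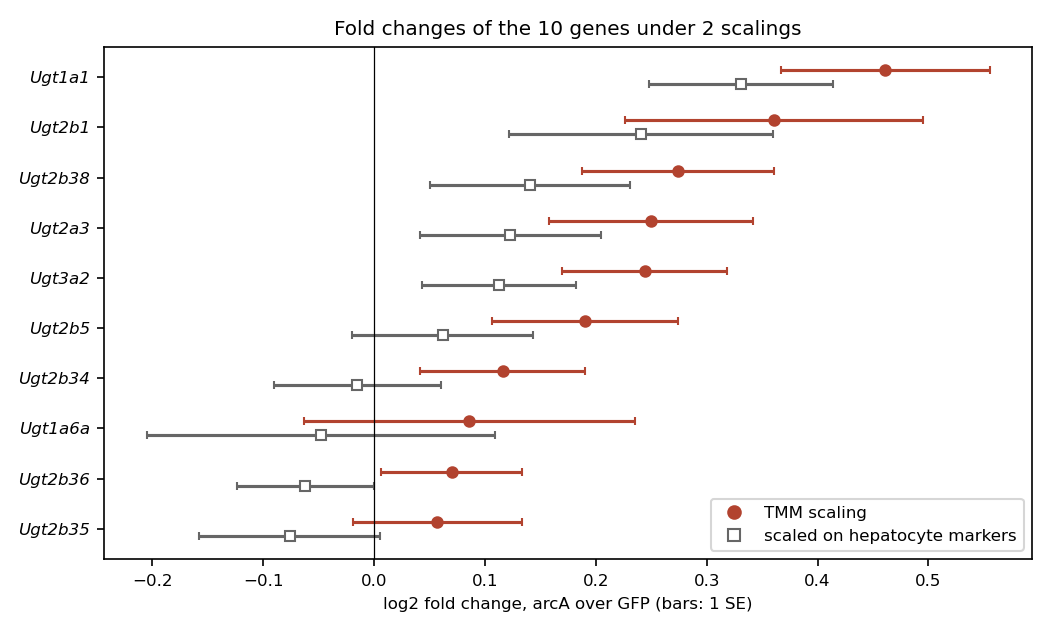
Log2 fold change of each gene, arcA over GFP, with bars of 1 SE from edgeR's quasi-likelihood fit, under the main scaling and with scaling on hepatocyte markers. Ugt1a1 lies at 0.46 and 0.33, above 0 in both, while Ugt2b34, Ugt2b35, Ugt2b36 and Ugt1a6a lie below 0 with scaling on hepatocyte markers.

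Per kilobase of exon, the order of levels was the same in both groups for the most abundant genes. Ugt2b5 led with 311.5 CPM per kilobase in arcA livers and 273 in GFP livers. Ugt2b36 followed with 274 in arcA livers and 261 in GFP livers. The gap to Ugt2b5 was larger than either SD in arcA livers (27.9 for Ugt2b5 and 21.4 for Ugt2b36) and smaller than either in GFP livers (39.5 and 20.8). Ugt2b1 had 225 CPM per kilobase in arcA livers and 175 in GFP livers, and Ugt2a3 had 186 in arcA livers and 156.5 in GFP livers. The genes of each pair were measured in the same livers, so the SD of a gene does not measure the spread of the gap. Whether the gaps held from liver to liver was not tested. Below them came Ugt3a2 with 137 in arcA livers and 115.5 in GFP livers, and Ugt2b34 with 87.9 in arcA livers and 81.2 in GFP livers. Ugt2b35 had 19.5 CPM per kilobase in arcA livers and 18.8 in GFP livers, and Ugt2b38 had 9.73 in arcA livers and 8.04 in GFP livers. Ugt1a1 has no firm place, since it had 33.2 CPM per kilobase in arcA livers and 24.1 in GFP livers over all its exons. If counts came from its first exon alone, it had 80.8 in arcA livers and 58.7 in GFP livers. Over the 385 bases that no other gene on either strand shares, it had 191.6 in arcA livers and 139.2 in GFP livers. Ugt1a6a was lowest, at 0.553 in arcA livers and 0.523 in GFP livers over all its exons. Its place is uncertain as well, since 97.7% of its 50-base stretches occur in another gene.

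Among the 10 genes, the livers of one group did not vary together in one pattern. After the group means were removed, the correlation of log2 CPM over the 16 livers had a median of 0.30 over the 45 pairs, from -0.47 for Ugt1a6a with Ugt2b38 to 0.89 for Ugt2b36 with Ugt3a2. Ugt2a3 and Ugt2b1 correlated at 0.88, and Ugt2b5 and Ugt2b38 at 0.81. Ugt1a1 stayed between -0.31 and 0.30 with every other member. These correlations share the library scaling, and for Ugt2b5 and Ugt2b38 also sequence. Outside the family, among genes with a mean of at least 10 CPM, Ugt2a3 was most like Sult1d1 with 0.93, a sulfotransferase gene, and Ugt2b1 was most like Sult2a8 with 0.89. Ugt2b36 was most like Cyp2c50 with 0.93 and Ugt3a2 most like Baat with 0.90, which encodes the enzyme that joins bile acids to amino acids. Ugt1a1 was most like Pigk, at 0.81, and Ugt2b34 most like Clic4, at 0.89. Ugt1a6a was most like Srp72, at 0.85, and Ugt2b5 most like Vmp1, at 0.89. Ugt2b35 was most like Rnf217, at 0.79, and Ugt2b38 most like Ginm1, at 0.84. Each of these partners had the highest correlation among 6919 or 6920 genes compared over 16 livers. Such a search yields high values by itself, and the level that chance gives was not tested.

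**Figure D3:**
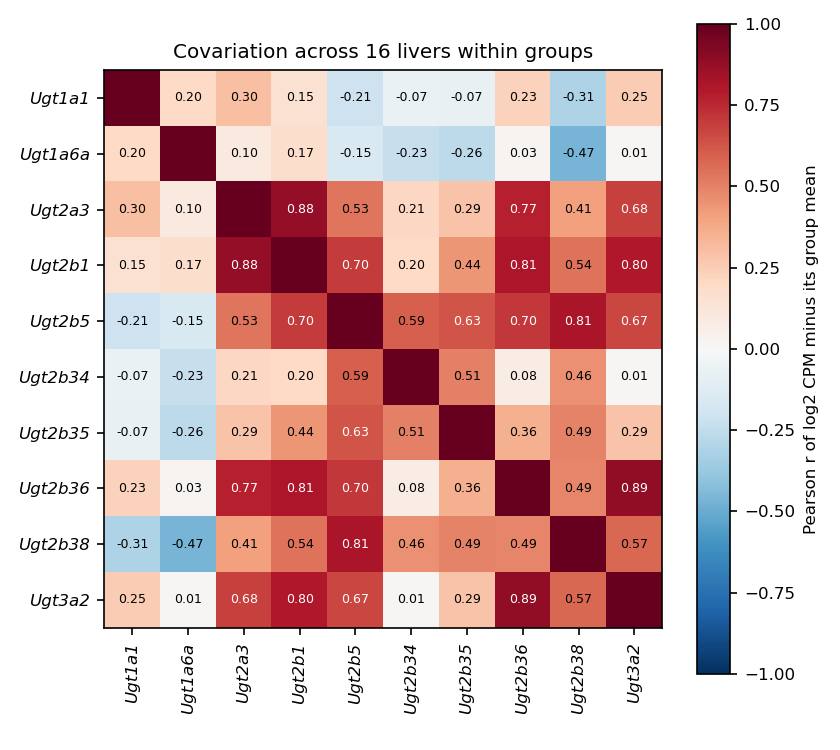
Correlation of log2 CPM between each pair of the 10 genes over the 16 livers after removal of the group means. The values run from -0.47 to 0.89, and Ugt1a1 lies between -0.31 and 0.30 with the other members.

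Genes that serve glucuronidation were counted in lists. Of 8 genes that supply UDP-glucuronate, 0 rose and 1 fell, with a median log2 fold change of -0.01. The one that fell was Pgm2, a phosphoglucomutase gene, with a log2 fold change of -0.42, an SE of 0.0962 and an adjusted p of 0.00773. Pgm2 was low, with means of 2.5 CPM in arcA livers and 3.34 CPM in GFP livers. Pgm1, a more abundant phosphoglucomutase gene of the list, averaged 201.6 CPM in arcA livers and 179.8 CPM in GFP livers. Its log2 fold change of 0.165 went the other way and did not pass, with an adjusted p of 0.072. Ugdh, whose enzyme oxidises UDP-glucose to UDP-glucuronate, did not pass, at 0.04 with an adjusted p of 0.794. Of 7 genes that release or use glucuronate none passed, and the smallest p belonged to Rgn, with a log2 fold change of 0.21 and an adjusted p of 0.0985. With scaling on the hepatocyte markers 2 of the 7 were called lower.

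Of 8 transporters of conjugates, 2 rose and 0 fell, with a median of 0.13. Abcc3, which exports glucuronides across the sinusoidal membrane to blood, averaged 325.5 CPM in arcA livers and 269 CPM in GFP livers, with a log2 fold change of 0.28, an SE of 0.0689 and an adjusted p of 0.0134. Slco2b1, an uptake carrier, rose by 0.23 with an adjusted p of 0.0308, and its call was kept in 10 of 16 fits without 1 library. Abcc2, the canalicular exporter of bilirubin glucuronides, did not pass, at -0.06 with an adjusted p of 0.600. Both calls were lost with scaling on the hepatocyte markers and without GFP livers 2, 3 and 5.

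Of 4 genes of bilirubin formation, 0 rose and 1 fell, with a median of -0.08. Hmox1, whose enzyme heme oxygenase opens heme on the way to bilirubin and which macrophages also express, averaged 10.4 CPM in arcA livers and 16.1 CPM in GFP livers. Its log2 fold change was -0.63 with an SE of 0.158 and an adjusted p of 0.0161. Macrophage markers summed to 121 to 406 CPM in arcA livers and 291 to 455 CPM in GFP livers, and their part in this result was not tested.

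Of 14 genes listed as regulators of these enzymes, all transcription factors except Keap1, 2 rose and 0 fell, with a median of 0.10. Stat5b, a mediator of growth hormone signalling, rose by 0.23 with an adjusted p of 0.0385. The call for Stat5b was kept in 7 of 16 fits without 1 library, with adjusted p up to 0.0949. No gene of this list was called higher with scaling on the hepatocyte markers or without GFP livers 2, 3 and 5. With scaling on the hepatocyte markers 2 were called lower. Hnf4a, on this list, is also among those markers. Of 7 target genes of regulators on this list none passed, with a median of 0.22. The smallest p was that of Cyp1a1, at 0.34 with an adjusted p of 0.183. The other genes were Cyp1a2, Cyp2b10, Cyp3a11, Nqo1, Cyp4a10 and Cyp4a14. Of the 7, 6 lay above 0, with Cyp2b10 at 0.08, and Cyp3a11 was at -0.14. Of 9 genes of sulfation, which conjugates many of the same compounds, 1 rose and 0 fell, with a median of 0.03. This was Papss2, which makes the sulfate donor, at 0.37 with an SE of 0.0902 and an adjusted p of 0.0122, a call lost with scaling on the hepatocyte markers and without GFP livers 2, 3 and 5.

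Since several liver enzymes differ between the sexes and along the lobule, lists of such genes were set beside the family. Of 16 female-biased genes 6 rose and 0 fell, with a median of 0.52, among them Cyp2b9 at 0.46 with an adjusted p of 0.0116 and Cyp2c69 at 1.93 with an adjusted p of 0.0140. Without GFP livers 2, 3 and 5, 1 of the 16 was called. Of 9 male-biased genes none passed, with a median of 0.35 and the smallest p for Cyp4a12a, at 0.54 with an adjusted p of 0.0590. Of 7 pericentral genes 1 rose, Cyp2e1, at 0.37 with an adjusted p of 0.00897. Cyp2e1 is also among the 4 hepatocyte markers that rose, so these counts share it. Of 8 periportal genes none passed, the smallest p being that of Gls2, at 0.27 with an adjusted p of 0.0564.

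**Figure D4:**
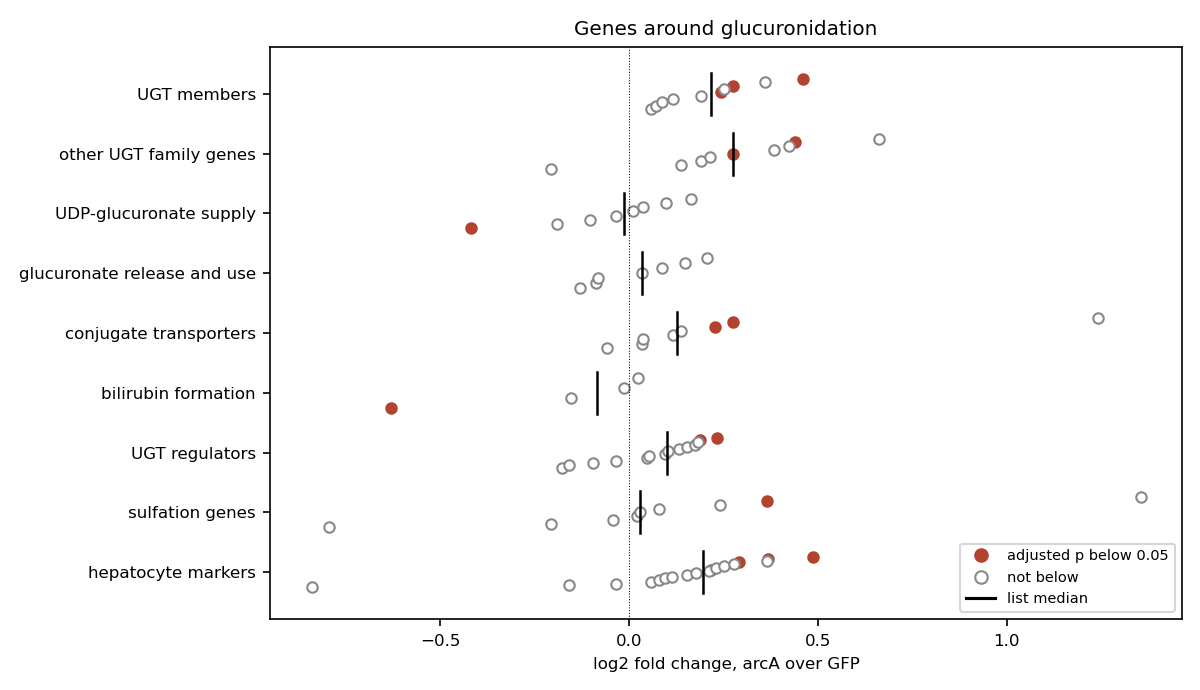
Log2 fold changes, arcA over GFP, of the genes in 9 lists, with 1 point per gene tested, filled where the adjusted p was below 0.05, and a line at the list median. The medians range from -0.08 for bilirubin formation to 0.27 for the other genes of the family, with 0.22 for the 10 glucuronosyltransferases and 0.20 for the hepatocyte markers.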

How the data were processed

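Polyadenylated RNA of 16 livers was sequenced, and the deposited table holds raw counts of reads per gene symbol. The submitters' processing notes name bcl2fastq, STAR 2.5.1a, Subread featureCounts 1.4.6-p5 and the build GRCm38. The sources used here give neither the annotation release nor the strand setting nor how reads in shared exons were handled. Of counts from 1 to 20, 69.8% were even, so mates may have been counted separately. Of 40757 lines, 348 exact copies were removed and 85 repeated symbols were summed. Groups came from the sample titles. The labels do not say that the livers were extracted or sequenced in one batch.

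Counts were fitted with edgeR 4.0.16 (R 4.3.3): TMM scaling, filterByExpr, robust quasi-likelihood F test, Benjamini-Hochberg adjustment over 14476 genes and a threshold of 0.05. The SE is the log2 fold change over the square root of F. The fit was tested on simulated data. Alternatives used other scalings and filters, halved counts, a replicate block, DESeq2 1.42.0, limma 3.58.1 (voom with quality weights) and fits without single or several libraries. Positions came from GENCODE M21 and promoters from RefSeq (GRCm38.p6). Of each list, up to 4 called genes with the smallest p were eligible to be named, or the 1 with the smallest p where none was called. One gene that the rule made eligible is not reported here. The members and lists were chosen with earlier results of these data known. Intervals are for the fitted difference between the groups, with an error drawn from the spread between livers, and are not ranges of the livers.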

Additional observations from a re-analysis of the deposited data

Results flagged for a closer look

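The lowest or highest liver of each gene was examined in both groups, 20 sets in all, and 2 stood apart by Dixon's criterion, which chance meets in about 1 in 20 sets. Ugt2b34 was at 483.1 CPM in arcA 8, above all other arcA livers. Without arcA 8 its log2 fold change was 0.06, against 0.12 with it, and it passed in neither fit. Ugt2b1 was at 249.5 CPM in GFP 7, below all other GFP livers. Without GFP 7 its log2 fold change was 0.27, against 0.36 with it, and it passed in neither fit. GFP 7 was also the lowest GFP liver for 7 of the 10 genes, Ugt2b1 included.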

How the results depend on the processing

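Of the 10 genes, 3 were called higher as reported. This count was 1 with upper-quartile scaling, with library size alone, with scaling on hepatocyte markers, with the strict filter (1 CPM in at least 8 libraries), with counts halved and without GFP 2, 3 and 5, where Ugt1a1 was the gene called. It was 2 with DESeq2's size factors in edgeR and without arcA 3 and 8, 3 with no filter and with voom, and 4 with DESeq2. Leaving out 1 library at a time gave 1 to 3 higher and 0 lower. Ugt1a1 kept its call in all 16 such fits, with log2 fold changes of 0.41 to 0.50. Ugt2b38 kept its call only without arcA 5, arcA 6, arcA 7 or GFP 1, and Ugt3a2 only without arcA 3, arcA 6, arcA 8, GFP 1 or GFP 3. Scaling on hepatocyte markers moved the median of all genes to -0.13 and turned Ugt1a6a to -0.048, Ugt2b34 to -0.015, Ugt2b35 to -0.076 and Ugt2b36 to -0.062. Over all genes, 617 were higher and 951 lower as reported, 113 and 1962 with scaling on hepatocyte markers, 253 and 800 with library size alone, 407 and 784 with the strict filter, and 369 and 818 without GFP 2, 3 and 5. Among the lists, the conjugate transporters called higher numbered 2 as reported and 0 with library size alone, scaling on hepatocyte markers and without GFP 2, 3 and 5. The regulators called higher numbered 2 as reported and 0 with those settings, upper-quartile scaling, the strict filter and counts halved. The female-biased genes called higher numbered 6 as reported and 1 without GFP 2, 3 and 5 and with the replicate block. The male-biased genes called higher numbered 0 as reported and 2 with DESeq2, voom and without arcA 3 and 8. The other genes of the family called higher numbered 2 as reported and 1 with library size alone, scaling on hepatocyte markers, the strict filter, without GFP 2, 3 and 5 and without arcA 3 and 8. Ugt1a6b was lost without arcA 2, arcA 6, GFP 2, GFP 3, GFP 5, GFP 6 or GFP 8. The regulators called lower numbered 0 as reported, 2 with scaling on hepatocyte markers and 1 with DESeq2's size factors in edgeR, upper-quartile scaling, the strict filter, DESeq2, voom and counts halved. Scaling on hepatocyte markers also gave 2 called lower for glucuronate release and use, against 0 as reported, 2 for UDP-glucuronate supply and 2 for bilirubin formation, against 1 each, and 1 for sulfation, against 0. The cause was not tested.

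With the replicate number as a block, 2 of the 10 genes were called, since Ugt3a2 was lost with an adjusted p of 0.0563. Same-numbered livers correlated at -0.047 to 0.404, and the labels state no pairing, so the numbers were not taken to pair the livers.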
